A study of Saccharomyces cerevisiae with 94 samples.

Results

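Each large (60S) ribosomal subunit of budding yeast carries 1 copy of most of its proteins, and these are encoded by the RPL genes, many of which survive as A and B copies of an old genome duplication. Together with the RPS genes of the small subunit and the RPP genes of the acidic stalk, they are among the most strongly expressed genes of growing yeast. Their transcription is co-ordinated by factors such as Rap1, Ifh1 and Sfp1 and falls quickly in stress. Poly(A) tails, which are added in the nucleus and shortened in the cytoplasm by the Ccr4-NOT and Pan2/3 deadenylases, are bound by Pab1, and decapping by Dcp2 followed by 5'-to-3' digestion by Xrn1 is the main route of mRNA decay.

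The RPL mRNAs were taken by name: transcripts of the coding class whose gene name is RPL, a number and, where a copy exists, the letter A or B. This gave 73 members of 10909 coding entries and of 13165 transcripts in all, beside 52 RPS and 5 RPP genes. Of the members, 9 are single-copy and 64 belong to a family of A and B copies, with both copies listed for 31 pairs, and 50 have an intron in the coding region. The data are Nanopore Direct RNA Sequencing (DRS) reads of native poly(A) RNA, so that each read gives 1 transcript and the length of its poly(A) tail. Levels are read counts scaled to the library total (CPM) after ENO2, used as a spike-in of other experiments, was dropped, and a tail is the mean over the reads of a transcript, in adenosines.

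The labels describe all cells as budding yeast of W303 background grown in YPDA at 25 °C before any shift. For WT and the deadenylase mutants, however, the methods of the study give a higher growth temperature and, for ccr4Δ, pan2Δ and the wild type that matches them, another strain background, so that these remain uncertain. In the Mex67-AA chase, the anchor-away strain, in which Mex67 is removed from the nucleus by rapamycin (1 µg/ml), was sampled from 0 to 30 min in replicates A, B and C (17 libraries). Mex67 is the main mRNA export factor. In the heat chase, wild-type cells at 25 °C received an equal volume of medium at 51 °C to reach 37 °C and were sampled from 0 to 20 min in replicates A, B and D (18 libraries). In the thiolutin chase, wild-type cells received 4 µg/ml of this transcription inhibitor and replicate A was followed from 0 to 60 min (8 libraries). Replicate B of this chase was not used here, because its column pools all times. The remaining experiments had 1 pooled column per group, or 1 library for pop2Δ and for the undigested RNA. Dcp2-AID and Xrn1-AID cells, in which an auxin-inducible degron is fused to the named protein, were set against an AID control, all with 1 mM 1-NAA for 2 h. Pab1-AID cells after 1 h or 2 h of auxin were set against a Pab1-AID control without auxin, whose title names it a wild-type AID control. The strain list of the study gives the Xrn1-AID and Pab1-AID strains the RPL13 anchor fusion of the anchor-away system as well. Finally, ccr4Δ, pan2Δ and pop2Δ strains were set against wild type (WT), and WT RNA digested with Xrn1 in the tube against undigested RNA.

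A chase library held 26396 to 2575918 reads, and a pooled or single column held 352899 to 5504907. The heat libraries of replicate D at 0 and 4 min were the shallowest, with 87938 and 26396 reads. ENO2 took 4.34% of the thiolutin library at 8 min and 24.5% to 39.7% of the others. The Mex67-AA library of replicate C at 8 min stood apart with 25.3% of its reads on members. No spike-in sets the scale, so every level is a share of its library, and a loss of all other mRNAs cannot be told apart from a rise. Replicates were labelled with letters, and p-values measure the spread between these samples.

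RPL genes are known for Rap1 sites upstream, so the 500 bases before each start codon were searched on both strands for ACCCNNACA, the core of such a site (N is any base). It was found for 35 of 73 members (47.9%) and for 328 of 6006 protein-coding genes (5.46%), and its longer form ACACCCNNACA for 11 members and 56 genes (0.932%). Of 56 RPS genes searched, 18 (32.1%) had a match to the core. The nearest match of members lay 153 to 480 bases before the start. The stretches of members described below are shown with the match in capitals and 20 bases on each side, read 5' to 3' on the strand of the gene, from the R64 (sacCer3) RefSeq assembly. They lie at chrIV:1401415-1401463 (+ strand, RPL27B), chrXIII:650963-651011 (+, RPL36A), chrXVI:76525-76573 (-, RPL36B), chrIV:222117-222165 (-, RPL41B) and chrVIII:36236-36284 (-, RPL8A).
RPL27B: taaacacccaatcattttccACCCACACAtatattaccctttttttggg
RPL36A: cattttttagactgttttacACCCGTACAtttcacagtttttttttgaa
RPL36B: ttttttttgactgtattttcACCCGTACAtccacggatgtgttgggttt
RPL41B: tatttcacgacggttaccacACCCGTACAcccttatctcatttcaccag
RPL8A: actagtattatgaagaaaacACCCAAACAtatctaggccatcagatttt
The pair RPL36A and RPL36B thus carries the same letters of the match, at 153 and 305 bases before the start. No such letters were found in this window for RPL4A, RPL4B, RPL3, RPL12A, RPL15B, RPL18B, RPL30 or RPL41A.

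Reads can be told apart between copies only where these differ. The coding sequences of a pair were identical at a median of 93.2% of bases, between 78.9% for RPL22 and 99.4% for RPL1, and 10 pairs reached at least 95%. To show how close this is, the complete coding region of RPL41A (chrIV:130407-130484, - strand) and RPL41B (chrIV:221724-221801, -), with 78 bases each, and the last 78 coding bases of RPL36A (chrXIII:651833-651910, +) and RPL36B (chrXVI:75699-75776, -) are given in the same build, with differing bases in capitals.
RPL41A: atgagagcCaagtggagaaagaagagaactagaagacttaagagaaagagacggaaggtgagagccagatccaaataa
RPL41B: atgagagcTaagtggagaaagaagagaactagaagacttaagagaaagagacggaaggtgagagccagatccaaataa
RPL36A: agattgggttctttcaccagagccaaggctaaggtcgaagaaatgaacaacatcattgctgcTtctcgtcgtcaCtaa
RPL36B: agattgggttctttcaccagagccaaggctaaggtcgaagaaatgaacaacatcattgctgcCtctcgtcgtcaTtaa
RPL41 therefore differed at 1 coding base, and its reads are separated mainly by their untranslated ends. This end of RPL36 differed at 2 bases, but it is closer than the rest of the pair. The whole coding sequences of RPL36 were identical at 89.4% of bases, below the median of pairs. Values of single copies are limited by how far the reads of a pair can be told apart. Of 51 coding introns of members, with a median length of 414 bases, 40 opened with GTATGT. RPL30, whose protein represses the splicing of its own transcript, opened with GTCAGT.

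A few entries did not hold the whole gene. The interval listed for RPL7A ended 1104 bases short of its stop codon and that of RPL14A 212 bases short, and they held 13 and 38 reads over all columns used. The interval listed for RPL8A (chrVIII:34565-35253, - strand) lay wholly beyond the stop codon of its coding region (35255 to 36025), so that values of RPL8A below are those of this 3' entry. Its coding region had an entry without that gene name, with 17513 reads over 54 columns, whose values are not given here. RPL13A, which encodes the ribosomal protein used as the anchor in the anchor-away method, had 0 to 2 reads in each Mex67-AA library and 34 to 672 in each heat library. It was not tested in the Mex67-AA chase.

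The RPL mRNAs were abundant and had short tails in unstressed cells. Over the 7 libraries taken at 0 min of the chases, the median member had a mean of 2358 CPM, and 62 of 73 members exceeded 1000 CPM. These libraries mix the anchor-away strain and wild type, so that each SD over them includes any difference between strains. By level, RPL2B (uL2 protein), RPL30 and RPL14B led with 7093 ± 412, 6528 ± 714 and 6279 ± 1037 CPM (SD, n = 7 libraries). Per length of the entry, RPL41A, which encodes the smallest ribosomal protein, came first with 10002 CPM per kb, and RPL30 followed with 9054 CPM per kb, against 4868 for RPL2B and 6273 for RPL14B. RPL15B was the lowest member with a complete entry, at 38.6 CPM, whereas RPL7A and RPL14A, with the partial entries above, had 0 and 2.9 CPM. Among the 69 members with at least 10 reads in each of these libraries, the mean tail had a median of 27.4 adenosines. The longest tails were those of RPL22B (42.8 ± 6.7 adenosines), RPL18B (37.4 ± 2.7) and RPL8A (36.7 ± 5.6), and the shortest those of RPL33B (22.1 ± 2.9), RPL36A (23.7 ± 1.9) and RPL31A (24.1 ± 1.9; SD, n = 7 libraries). Over members, level and tail had a Spearman rho of -0.14 (n = 69 genes that share these libraries).

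Copies of a gene were often unequal. In all 7 control libraries A exceeded B in 16 of 31 pairs and B exceeded A in 11, and 9 pairs were over 2-fold apart in all of them, among these RPL8 and RPL14, whose A entries are partial. The log2 ratio of RPL1 (A over B) was 0.19 to 0.27 in the Mex67-AA controls, but -0.48 to -0.18 in wild type. RPL15A exceeded RPL15B by a mean of 6.22 on the log2 scale and RPL22A exceeded RPL22B by 3.74, while RPL36B exceeded RPL36A (log2 A over B of -1.48) and RPL2B exceeded RPL2A (-1.53). Tails differed too: in the Mex67-AA controls, RPL22A had tails shorter than RPL22B by 19.8 to 24.0 adenosines in each of 3 libraries. The gap was smaller in the heat controls, where RPL22A had 26.3, 26.1 and 25.1 adenosines, against 33.8, 34.7 and 41.4 for RPL22B. It was also smaller in the thiolutin control (30.1 against 43.2). For RPL4, RPL16 and RPL26, among others, the sign of the tail difference varied between the 3 Mex67-AA controls.

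The Mex67-AA chase asks how exported mRNAs decay and lose their tails once export is stopped. As a share of the library, the RPL mRNAs hardly moved as a family. Members took 19.2% of the reads at 30 min against 17.7% at 0 min in replicate A, 17.9% at 20 min against 16.8% in replicate B, and 23.7% at 30 min against 22.2% in replicate C. In contrast, the heat chase cut the share to 7.15% at 14 min against 20.0% at 0 min in replicate A, to 5.54% at 16 min against 20.3% in replicate B, and to 9.69% at 16 min against 20.8% in replicate D. With thiolutin it was 16.1% at 0 min, 9.10% at 20 min, 3.81% at 30 min and 0.755% at 60 min.

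**Figure D1:**
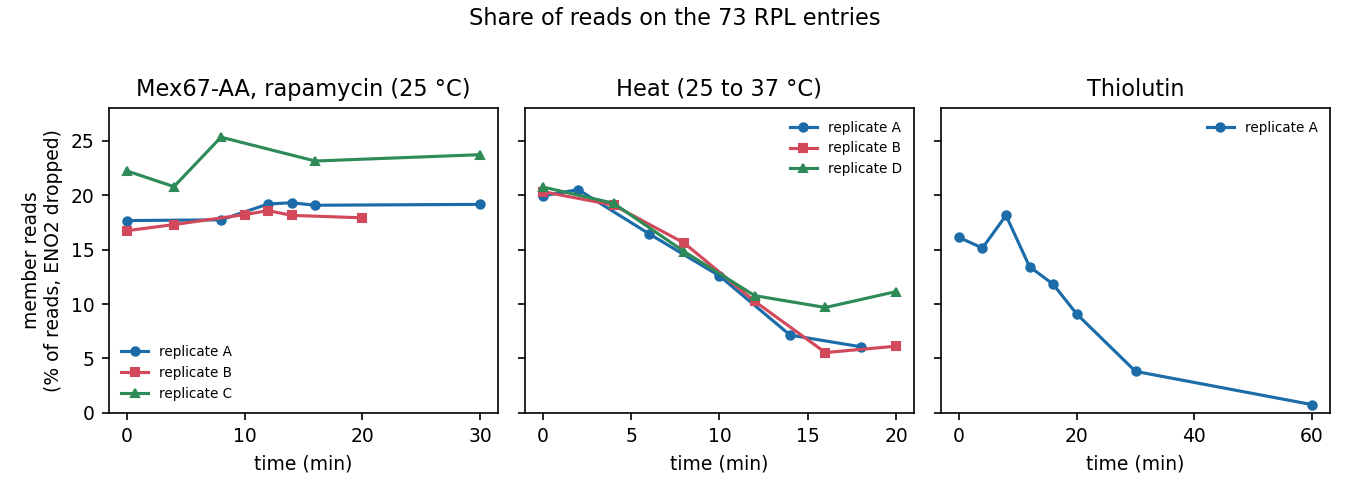
Share of reads (%, ENO2 dropped) on the 73 RPL entries over time (min), with 1 line per replicate in the Mex67-AA, heat and thiolutin chases. The lines stay between 16.8% and 25.3% in the Mex67-AA chase and drop to 5.54% in heat replicate B at 16 min and to 0.755% with thiolutin at 60 min.

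A slope of log2 CPM over time, in log2 units per 10 min, was fitted to each transcript with the edgeR quasi-likelihood test and Benjamini-Hochberg adjustment over all transcripts. In the Mex67-AA chase (0 to 30 min), 70 members were tested, of which 18 fell and 26 rose at an adjusted p under 0.05. Of all 4424 transcripts tested, 76.8% fell and 5.24% rose. The median slope was 0.05 for members and -0.67 for all transcripts, so that members lay above the bulk of the library. Fitted to each replicate alone, it was 0.06, 0.07 and 0.03 for members in A, B and C. For RPS genes it was 0.11, 0.08 and 0.11. With TMM or DESeq2 scaling, where the median of all transcripts was -0.17 and -0.16, 6 members fell and 59 and 60 rose. The 6 that fell under every scaling were RPL4A, RPL4B, RPL3, RPL15B, RPL22B and the entry of RPL8A, and slopes near 0 are positions relative to the library.

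The steepest falls were those of the RPL4 pair, RPL15B, RPL3 and RPL8A. RPL4A and RPL4B encode uL4, whose extension lines the narrow part of the exit tunnel. RPL4B (chrIV:471809-473017, + strand) had 2543, 2774, 1914, 1466, 1136 and 41.4 CPM in replicate A at 0, 8, 12, 14, 16 and 30 min. It had 2265, 2260, 2064, 1707, 1485 and 563 CPM in replicate B at 0, 4, 10, 12, 14 and 20 min, and 2757, 2696, 2410, 566 and 30.7 CPM in replicate C at 0, 4, 8, 16 and 30 min. Levels stayed near those of 0 min up to 8 or 10 min and every library from 12 min on was below its control. The slope was -1.72 (SE 0.24, adjusted p = 2.4e-06, edgeR). RPL4A (chrII:300104-301392, +) fell to 238 CPM at 30 min against 5616 at 0 min in replicate A, to 1680 at 20 min against 5042 in B and to 227 at 30 min against 5999 in C, with a slope of -1.41 (SE 0.21, adjusted p = 4.0e-06, edgeR). The fall of both copies was larger than the spread of their 3 controls.

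RPL3 (chrXV:444650-445970, +), which encodes uL3 near the peptidyl transferase centre, fell to 326, 971 and 252 CPM in the last libraries of A, B and C, against 3714, 4343 and 2785 at 0 min. Its slope was -1.27 (SE 0.15, adjusted p = 1.9e-07, edgeR). RPL15B, the weakly expressed copy of the eL15 gene, had 1.7, 3.4 and 4.4 CPM in these libraries, against 37.1, 22.3 and 70.5 CPM, with a slope of -1.43 (SE 0.16, adjusted p = 1.7e-07, edgeR). Its late values rest on a handful of reads, with 0 CPM at 16 min of replicate C. The 3' entry of RPL8A had 8.5, 26.0 and 17.6 CPM against 126, 96.5 and 250 CPM (slope -1.20, SE 0.12, adjusted p = 4.1e-08, edgeR), from as few as 10 reads. In each of these 3 entries the last libraries did not overlap the controls. Further members that fell were RPL15A (-0.84), RPL22B (-0.71), RPL11B (-0.57) and RPL10 (-0.51), the last encoding uL16, which joins the subunit late in the cytoplasm. Of these, only RPL22B still fell under TMM and DESeq2 scaling (-0.20 and -0.21). RPL15A (-0.30 and -0.32), RPL11B (-0.06 under either) and RPL10 (0.00 under either) did not pass the test there. RPL18B and RPL36A also fell, with slopes of -0.39 and -0.19, but both turned positive under TMM and DESeq2 scaling (0.10 and 0.12 for RPL18B, 0.32 under either for RPL36A).

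At the other end, RPL41B led with a slope of 0.30 (SE 0.05, adjusted p = 2.4e-05, edgeR), followed by RPL33A (0.27), RPL36B (0.26), RPL30 (0.25) and RPL1A (0.22). RPL30 had 9677, 8567 and 12132 CPM in the last libraries of A, B and C, against 5874, 5749 and 7676 CPM at 0 min. RPL41B had 2652, 2465 and 9337 CPM there, against 1604, 1860 and 4272 CPM. Both rose in each replicate, yet the ranges over replicates overlap for RPL41B because replicate C was high throughout.

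Members were also counted by role, beside the 76.8% of all transcripts that fell and the 5.24% that rose. Of the 4 members at the tunnel constriction, RPL4A and RPL4B fell and RPL17B rose (0.09), while RPL17A had a slope of -0.06. Of the 12 members on the rim of the exit tunnel, where nascent chains emerge (copies of RPL17, RPL19, RPL26, RPL31 and RPL35, and RPL25 and RPL39), 1 fell (RPL26A, -0.26) and 4 rose. Among the 3 members that bind the 5S rRNA, RPL11B fell, a call lost under TMM and DESeq2, and RPL5 and RPL11A had slopes of -0.03 and 0.07. Of the 7 members that join late in the cytoplasm (RPL10 and copies of RPL24, RPL40 and RPL42), RPL10 fell and 3 rose. Among members with a coding intron, 8 of 47 fell and 18 rose, and among those without, 10 of 23 fell and 8 rose. These lists were drawn up with earlier results known and are given as counts.

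With an estimator of the kind used in the study, which averages positive decay constants over all pairs of time points, here with the control left at 0 min, the median member had 57.4 min in the Mex67-AA chase, 9.69 min under heat and 12.2 min with thiolutin. In the Mex67-AA chase, RPL4B had 7.23 ± 2.85 min, RPL3 7.58 ± 1.49 min and RPL4A 8.55 ± 4.07 min (SD, n = 3 replicates). RPL36A had 44.2 ± 21.8 min there and 4.89 ± 0.98 min under heat, and RPL4B had 14.0 ± 3.1 min under heat (SD, n = 3 replicates). The estimator drops rising pairs. When these were kept, 35 of 70 members had a decay at all in the Mex67-AA chase, with a median of 85.6 min, against 45.2 min for the same members with rising pairs dropped. With the control set to 2.7 min, near the onset of the block used in the study, the median of all 70 was 48.5 min.

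Under heat, nearly the whole family fell. The chase asks which mRNAs are lost when transcription is interrupted by the shift to 37 °C, and the fit ends at 16 min, so that the libraries at 18 and 20 min are outside it. Tails of some members lengthened before that time, as described with the tails. Of 71 members tested, 70 fell and 0 rose, against 17.0% of all 3795 transcripts that fell and 48.4% that rose. No member rose at an unadjusted p under 0.05 either, nor with DESeq2. The median slope was -1.03 for members and 0.46 for all transcripts (edgeR quasi-likelihood test). Fitted to each replicate alone, it was -1.10, -1.24 and -0.82 for members in A, B and D. For RPS genes it was similar, at -1.01, -1.16 and -0.76. All 12 rim members, all 3 of the 5S RNP, all 4 of the tunnel constriction and all 9 single-copy members fell.

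The steepest were RPL27B, RPL12A, RPL36A, RPL8A and RPL13A. RPL27B (chrIV:1401693-1402677, +), which encodes eL27, had 1503, 1563, 918, 396 and 103 CPM at 0, 2, 6, 10 and 14 min in replicate A. It had 1490, 1236, 767, 226 and 109 CPM at 0, 4, 8, 12 and 16 min in replicate B and 1523, 1277, 760, 313 and 431 CPM at these times in replicate D. Every library from 6 min on was below each control, and replicate D was highest at 16 min. The slope was -2.09 (SE 0.25, adjusted p = 3.1e-06, edgeR). RPL36A (chrXIII:651113-652009, +) fell to 68.8, 65.3 and 180 CPM in the last libraries of A, B and D, against 608, 711 and 744 CPM at 0 min (slope -1.93). RPL12A (chrV:52485-53293, -), which encodes uL11 at the base of the stalk, fell to 417, 261 and 787 CPM, against 3461, 3424 and 3371 CPM (slope -1.93). The 3' entry of RPL8A and RPL13A had slopes of -1.90 and -1.70. In all 3 replicates, the last libraries of RPL36A and RPL12A lay below every control.

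Least affected was RPL15B, with 41.9, 24.5 and 13.2 CPM in the last libraries against 35.4, 42.7 and 34.9 CPM at 0 min, and its slope of -0.30 did not pass the test (adjusted p = 0.28, edgeR). RPL41B (-0.45), RPL41A (-0.53), RPL28 (-0.56) and RPL10 (-0.59) fell at the slowest rate among members called. RPL28, a single-copy gene of uL15, had 3506, 2790 and 4139 CPM in the last libraries, against 6162, 6170 and 5824 CPM at 0 min. After the window, at 18 or 20 min, RPL27B was back at 207, 285 and 853 CPM in A, B and D.

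The difference of both slopes was tested in 1 fit over 0 to 16 min of each chase, in which strain and treatment cannot be told apart. Of 71 members, among them RPL13A, which had reads under heat but hardly any in the Mex67-AA chase, 66 had a lower slope under heat and 1 a higher one, against 11.2% and 70.8% of 4222 transcripts (edgeR quasi-likelihood test). The median difference was -1.10. The member with the higher slope was RPL15B (difference 1.16, SE 0.30, adjusted p = 7.8e-04). With TMM its difference was 0.07 and with DESeq2 0.48, and neither passed the test (adjusted p of 0.84 and 0.18). RPL22B (-0.74, SE 0.40), RPL3 (-0.10, SE 0.23) and RPL4B (0.11, SE 0.20) did not pass it in either direction. The difference of RPL4A passed as lower under heat (-0.40, SE 0.19, adjusted p = 0.048, edgeR).

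**Figure D2:**
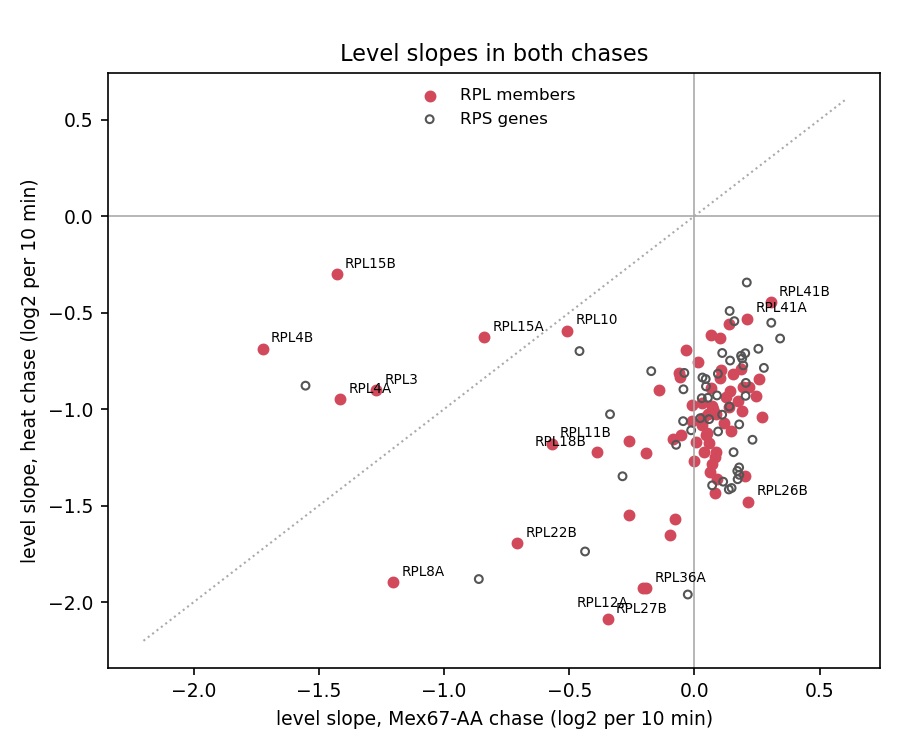
Level slopes (log2 per 10 min) of the RPL members (filled) and RPS genes (open) in the Mex67-AA chase (horizontal axis) and the heat chase (vertical axis), with equal slopes on the dotted line. The Mex67-AA slopes cover 0 to 30 min and the heat slopes 0 to 16 min, so that the side of the line is no test of the difference. Most members lie near 0 in the Mex67-AA chase and near -1.03 under heat, while RPL4B, RPL4A, RPL3 and RPL15B lie to the left, at slopes from -1.72 to -1.27 in the Mex67-AA chase.

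With thiolutin, 70 members had at least 50 reads at 0 min, and their levels fell late. Their median log2 ratio to 0 min was -0.08 at 4 min, 0.14 at 8 min, -0.36 at 12 min, -0.55 at 16 min, -0.84 at 20 min, -2.24 at 30 min and -5.11 at 60 min. The 8 min library is the one with little ENO2. More than 2-fold below the control were 0 of 70 members at 4 and at 8 min (0.700% of all 1286 entries at either time), 2 at 12 min (7.47%) and 7 at 16 min (13.1%). Later there were 26 at 20 min (18.4%), 68 at 30 min (36.3%) and 69 at 60 min (38.7%). Of 51 RPS genes, 21 were this low at 20 min, 50 at 30 min and 51 at 60 min. With 1 culture used there is no replicate check and no test. RPL41B was the exception at both 30 and 60 min, with 1978 CPM at 0 min, 1993 at 30 min and 1048 at 60 min. RPL41A was an exception at 30 min only, with 2524 CPM at 0 min, 1848 at 30 min and 508 at 60 min. RPL4A and RPL4B, which fell in the Mex67-AA chase, had 1711 and 701 CPM at 30 min against 5655 and 3217 CPM at 0 min. RPL36A had 45.4 CPM at 30 min against 692 CPM, and the entry of RPL8A had 0 reads at 60 min.

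Tails shortened during the Mex67-AA chase. The slope of the mean tail, in adenosines per 10 min, was fitted with limma up to 16 min to transcripts that had 10 or more reads in every library. Of 69 members tested, 68 shortened and 0 lengthened, against 91.3% and 0.654% of 1071 transcripts, and none lengthened at an unadjusted p under 0.05 (limma, Benjamini-Hochberg). The median slope was -3.69 for members and -5.70 for all transcripts. Fitted to each replicate alone, it was -4.24, -3.19 and -3.65 for members in A, B and C. For RPS genes it was similar, at -4.19, -3.16 and -3.54. The median over members of the mean tail was 21.5, 21.9 and 20.9 adenosines in the last libraries of A, B and C within this window, against 28.1, 26.0 and 27.3 adenosines at 0 min, while the median of other coding entries was 23.7, 25.8 and 23.3, against 37.9, 34.8 and 34.4 adenosines.

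Shortening was fastest for RPL8A, RPL4B and RPL15A. The RPL8A entry had 15.5, 20.1 and 13.5 adenosines in the last libraries of A, B and C up to 16 min, against 30.8, 32.7 and 39.2 at 0 min (slope -11.59, SE 1.09, limma). RPL4B had 20.6, 23.8 and 17.0 adenosines, against 35.6, 34.4 and 30.2 (slope -8.58, SE 0.98). RPL15A, the abundant copy of eL15, followed with a slope of -7.77. In each of these 3 the last libraries of the window lay below all controls. The tail slope of RPL3 was -7.33. RPL39, a short protein in the wall of the exit tunnel, was slowest (-2.22, SE 0.57), followed by RPL43A (-2.51) and RPL2B (-2.62). RPL22B, with a slope of -3.16 and an SE of 3.91, did not pass the test; it had as few as 12 reads, and its tails were 33.8, 30.9 and 60.4 adenosines against 51.6, 46.8 and 48.0, with replicate C above its control. At 30 min, outside the window, RPL18B had 40.6 and 58.2 adenosines in A and C, with 199 and 76 reads.

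Under heat, tails of members first shortened and later lengthened. The median over members was 26.8 adenosines at 0 min, 22.6 at 6 min, 19.7 at 14 min and 28.9 at 18 min in replicate A. It was 26.5 at 0 min, 21.3 at 8 min, 20.0 at 12 min, 22.5 at 16 min and 33.0 at 20 min in replicate B, and 27.0, 21.2, 21.3, 27.0 and 32.6 at these times in replicate D. Within 16 min, 22 of 68 members shortened and 0 lengthened, against 8.26% and 7.22% of 872 transcripts, and 3 members lengthened at an unadjusted p under 0.05 (limma, Benjamini-Hochberg). The median slope was -2.66 for members and 1.13 for all transcripts. The count depended on single cultures: it was 0 without replicate A and 0 without replicate B, where 9 and 19 members shortened at an unadjusted p under 0.05, and 35 without replicate D.

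RPL10 (-5.45, SE 1.14, adjusted p = 0.013), RPL9A (-4.92, SE 0.87, adjusted p = 0.012) and RPL4B (-4.61, SE 1.35, adjusted p = 0.038) shortened fastest (limma). RPL10 had 19.5, 21.6 and 27.9 adenosines in the last libraries of A, B and D, against 30.7, 30.1 and 31.2 at 0 min. In contrast, RPL18B (slope 6.54, adjusted p = 0.10), RPL9B (5.45, adjusted p = 0.13) and RPL36A (5.19, adjusted p = 0.084) had the highest slopes, which did not pass the test (limma). RPL36A had 23.4, 20.6, 18.3, 19.6 and 29.1 adenosines at 0, 2, 6, 10 and 14 min in replicate A, and 20.5, 19.5, 17.5, 23.5 and 33.2 at 0, 4, 8, 12 and 16 min in replicate B. RPL18B had 41.7, 50.8 and 44.0 adenosines in the last libraries, against 38.2, 32.7 and 34.6 at 0 min. Tails of both thus dipped and then exceeded their controls in all 3 replicates, from 24 to 101 reads in these last libraries.

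Set against the Mex67-AA chase in 1 fit, 8 of 67 members had a higher tail slope under heat and 0 a lower one, against 65.1% and 1.05% of 762 transcripts, and none was lower at an unadjusted p under 0.05 (limma, Benjamini-Hochberg). These were RPL18B (difference 11.44, SE 3.22, adjusted p = 3.2e-03), RPL9B (11.13), RPL36A (9.75), RPL27B (8.50), RPL33B (5.07), RPL11B (4.70), RPL4B (3.97) and RPL37B (3.22). The median over members was 0.94 and over all transcripts 6.61. With thiolutin, the median tail of members was 30.1 adenosines at 0 min, 24.8 at 20 min, 23.3 at 30 min and 23.1 at 60 min.

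**Figure D3:**
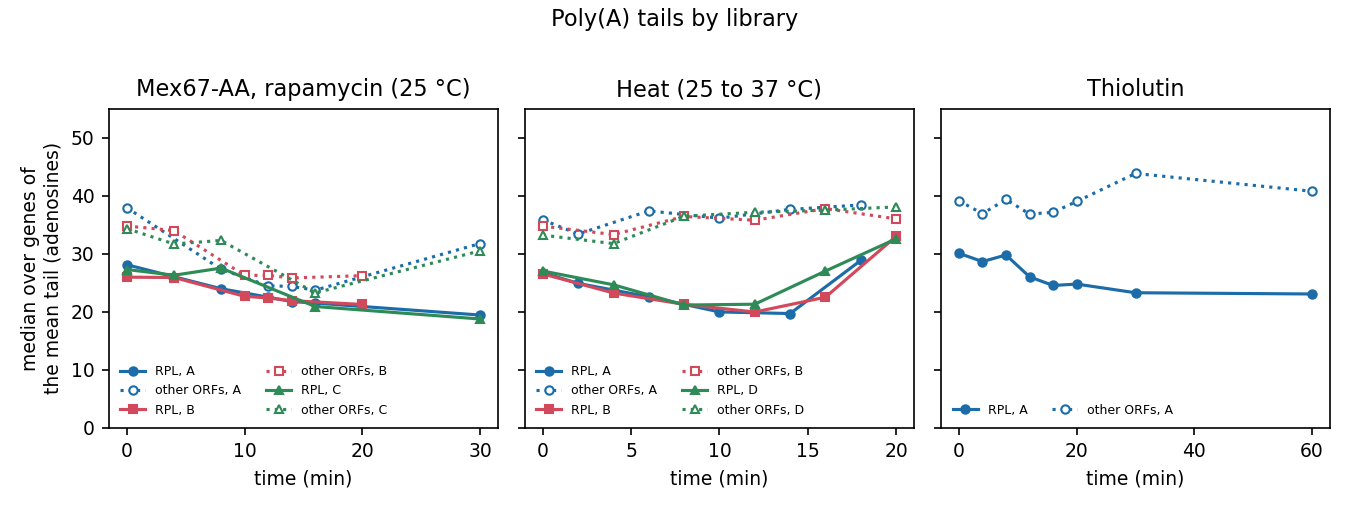
Median over genes of the mean poly(A) tail (adenosines) in each library over time (min), for RPL members (filled, solid) and other coding entries (open, dotted), with 1 colour per replicate. Members start below the other entries in every chase and reach 20.9 to 21.9 adenosines in the Mex67-AA chase by 14 or 16 min, and under heat they turn upward after 8 to 14 min to 28.9 to 33.0 adenosines.

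Copies of a gene did not always follow each other. The log2 ratio of A to B reads, with 0.5 reads added, was compared within each replicate between the last library of the window and 0 min, and 23 of 31 pairs moved the same way in all 3 replicates in each chase. In the Mex67-AA chase 10 pairs changed by over 1 on the log2 scale and under heat 8. In the Mex67-AA chase RPL13 and RPL14 had next to no reads of the A copy, and without them 22 of 29 pairs moved the same way and 9 changed by over 1. The exact two-sided sign-flip permutation test over 3 replicates cannot go below p = 0.25, so that no pair could pass 0.05.

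In the Mex67-AA chase the RPL22 ratio was 6.29, 6.37 and 6.44 in the last libraries of A, B and C, against 3.96, 4.33 and 4.01 at 0 min, a mean change of 2.27 ± 0.21 (SD, n = 3). The controls and last libraries did not overlap. RPL22B carries an intron whose splicing is inhibited by the Rpl22 protein, and this copy fell to 38.05, 28.1 and 51.2 CPM, against 152, 104 and 192 CPM. RPL22A rose, with a slope of 0.14. The ratio of the RPL8A entry to RPL8B was -8.67, -6.72 and -7.73, against -4.24, -4.56 and -3.40, a change of -3.64 ± 1.28. RPL11 and RPL15 changed by 1.6 ± 0.81 and 1.24 ± 0.64 (SD, n = 3 each). RPL11B fell, while RPL11A had 2130, 1843 and 4084 CPM in the last libraries of A, B and C, against 1990, 1762 and 3460 CPM. Both copies of RPL15 fell, with a larger loss of RPL15B, which had few reads.

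Under heat the RPL36 ratio was -3.61, -3.19 and -2.49 in the last libraries of A, B and D, against -1.55, -1.59 and -1.47 at 0 min, a change of -1.56 ± 0.52 (SD, n = 3). The 2 copies thus diverged, with a slope of -1.93 for RPL36A and -0.85 for RPL36B. RPL12, whose copies were level in the controls (-0.01, 0.04 and 0.03), reached -1.53, -1.86 and -1.08 through a larger loss of RPL12A. RPL27 reached 2.72, 1.94 and 1.33, against 0.45, 0.54 and 0.53, through a larger loss of RPL27B, and RPL35 changed by 1.29 ± 0.12. In these 4 pairs the last libraries of all replicates lay outside the range of the controls. The RPL8 ratio changed by -1.18 ± 0.47, from as few as 9 reads of the RPL8A entry in these libraries.

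**Figure D4:**
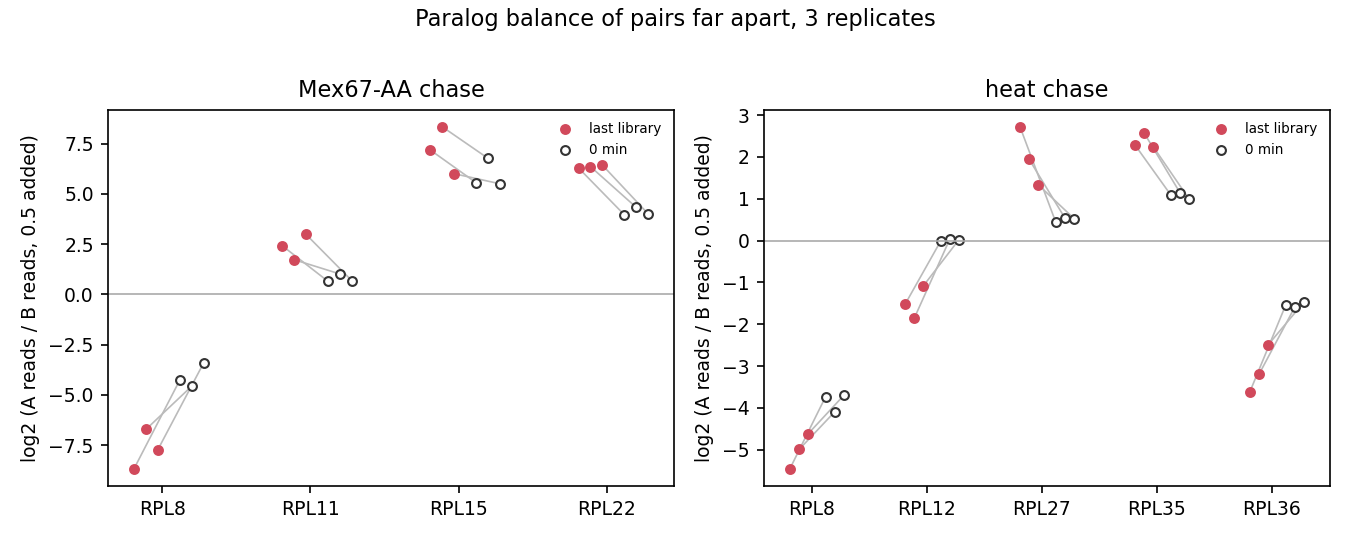
Log2 ratio of A to B reads of pairs with large differences of slopes in the Mex67-AA chase (left, 4 pairs) and in the heat chase (right, 5 pairs), with the last library of the window (filled) joined to 0 min (open) for each of 3 replicates. RPL22 moves to 6.29 to 6.44 against 3.96 to 4.33, and RPL36 to -3.61 to -2.49 against -1.59 to -1.47.

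In the thiolutin culture, the pairs that moved most among those with at least 50 reads of each copy at 0 min were RPL22 (change -2.31, with 2 reads of RPL22B in its lowest library), the RPL8 pair (-1.84, with 0 reads of the RPL8A entry at 60 min), RPL41 (-1.39), RPL24 (-1.35) and RPL19 (1.12). The RPL22 ratio was 3.39 at 0 min, 4.97 at 30 min and 1.08 at 60 min, and thus changed direction once reads were few. Outside that limit, the RPL15 ratio was 1.47 at 60 min, against 6.73 at 0 min, with 22 reads of RPL15B at 60 min and 17 at 0 min, and 62 reads of RPL15A against 1862.

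The pooled columns ask how decapping, 5'-to-3' digestion, the tail-binding protein and each deadenylase bear on the same mRNAs. They have no replicates, so that values are ratios of CPM and differences of mean tails without a test, and intervals are exact binomial 95% intervals that cover counting error only. Called means a level past 1.5-fold or a tail past 3 adenosines, among entries with at least 50 reads in both columns.

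Set against the AID control, members were lower after depletion of Dcp2 and higher after depletion of Xrn1. This control was itself low in members, which took 12.1% of its reads (8.22% with Dcp2 and 18.0% with Xrn1 depleted). They took 17.9% in the WT pool, 21.9% in the Pab1-AID control and 16.1% to 22.2% at 0 min of the chases. RPS genes took 9.31% of the AID control (6.24% and 13.7% in the depleted strains, in that order). How far the low share of this control shapes both ratios, above all the higher one, was not tested. In Dcp2-AID cells the median member had 0.66 times its level in the AID control, with 37 of 71 members lower and 0 higher, against 8.72% and 30.3% of all 2980 entries, whose median was 1.27. RPL2B had 1888 CPM in Dcp2-AID cells, against 3598 CPM in the AID control (ratio 0.52, interval 0.50 to 0.55), and RPL13B was as low (0.52). The RPL8A entry was highest, at 1.33 (1.09 to 1.63). Tails hardly moved: the median difference was -0.54 adenosines and 3 members were shorter and 0 longer, against 74.4% and 1.17% of entries. According to the study, DRS captures short-tailed mRNAs poorly and may understate shortening after depletion of Dcp2 or Xrn1. Tails in both strains carry this limit, and its effect on levels was not tested.

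In Xrn1-AID cells the median ratio was 1.498, with 35 members higher and 2 lower, against 25.2% and 16.6% of 2696 entries. RPL22B was highest, with 929 CPM in Xrn1-AID cells, against 296 CPM in the AID control (ratio 3.14, interval 2.82 to 3.50). RPL9A (2.32) and the RPL8A entry (2.19) followed. RPL13A was lowest, with 72 reads in Xrn1-AID cells against 1442 in the AID control (0.09, interval 0.07 to 0.11), and it was also low, at 77.3 CPM, in the Pab1-AID control. Its strain background was not tested. The other lower member was RPL9B (0.66). Tails differed by a median of -1.13 adenosines, with 4 members shorter and 0 longer, against 41.0% and 7.72% of entries.

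After depletion of Pab1, levels were close to those of the control and tails were longer. After 1 h of auxin the median ratio was 0.95, with 1 member higher and 1 lower (1.28% and 10.8% of 2588 entries), and tails were longer by a median of 4.42 adenosines, with 61 members longer and 0 shorter (94.6% and 0.116% of entries). The 1 h column thus had a median of 30.0 adenosines, against 25.4 in the control. After 2 h the ratio was 0.89, with 1 higher and 3 lower (6.91% and 17.4% of 2201 entries), and tails were longer by 6.73 adenosines, with 69 members longer and 0 shorter (96.5% and 0.0909%). RPL31B had 484 CPM and 38.5 adenosines after 2 h, against 953 CPM and 27.6 adenosines in the control (ratio 0.51, interval 0.47 to 0.55). RPL13A was the member that was higher, at 1.91 (1.54 to 2.38). Other coding entries were longer by a median of 10.59 adenosines at 1 h and 11.15 at 2 h.

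Among the deadenylase mutants, the pool labelled pan2Δ had the longest tails of members. The titles and genotypes of its samples name pan2Δ, but their descriptions name ccr4Δ, so that its strain carries this doubt. In pan2Δ cells the difference from WT had a median of 7.20 adenosines, with 69 members longer and 0 shorter (80.7% and 2.67% of 3338 entries), and the ratio of levels was 1.10, with 6 higher and 0 lower (7.82% and 8.27%). RPL30 had 40.9 adenosines in pan2Δ cells, against 29.9 in WT. The RPL8A entry (ratio 2.34) and RPL4A (1.74, interval 1.71 to 1.78) were among those higher. In ccr4Δ cells the difference was 3.80 adenosines, with 63 members longer and 0 shorter (85.4% and 0.753% of 3588 entries), and the ratio 1.04, with 2 higher and 0 lower (24.9% and 3.46%). RPL15A changed most, with 39.9 adenosines in ccr4Δ cells against 31.0 in WT. In pop2Δ cells, which had 1 library of 352899 reads, the difference was 1.03 adenosines, with 8 members longer and 2 shorter (17.1% and 16.0% of 1048 entries), and the ratio 0.87, with 1 higher and 8 lower (44.3% and 6.39%). RPL22B was the member that was higher (1.84, 1.54 to 2.18) and RPL2A was lowest, with 1047 CPM in pop2Δ cells against 2142 CPM in WT (0.49, interval 0.44 to 0.54). Set against undigested WT RNA in place of the WT pool, 47 members were longer in pop2Δ cells.

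Digestion of WT RNA with Xrn1 in the tube, which removes uncapped RNA, left members nearly as they were. The median ratio of digested to undigested RNA was 1.09, with 0 of 70 members higher or lower (7.00% and 2.75% of 1529 entries). The tail difference was -0.33 adenosines, with 1 member shorter and 0 longer (11.3% and 14.5%). RPL22B, at 290 CPM in digested RNA against 222 CPM in undigested RNA (1.30, interval 1.09 to 1.56), stayed within 1.5-fold.

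**Figure D5:**
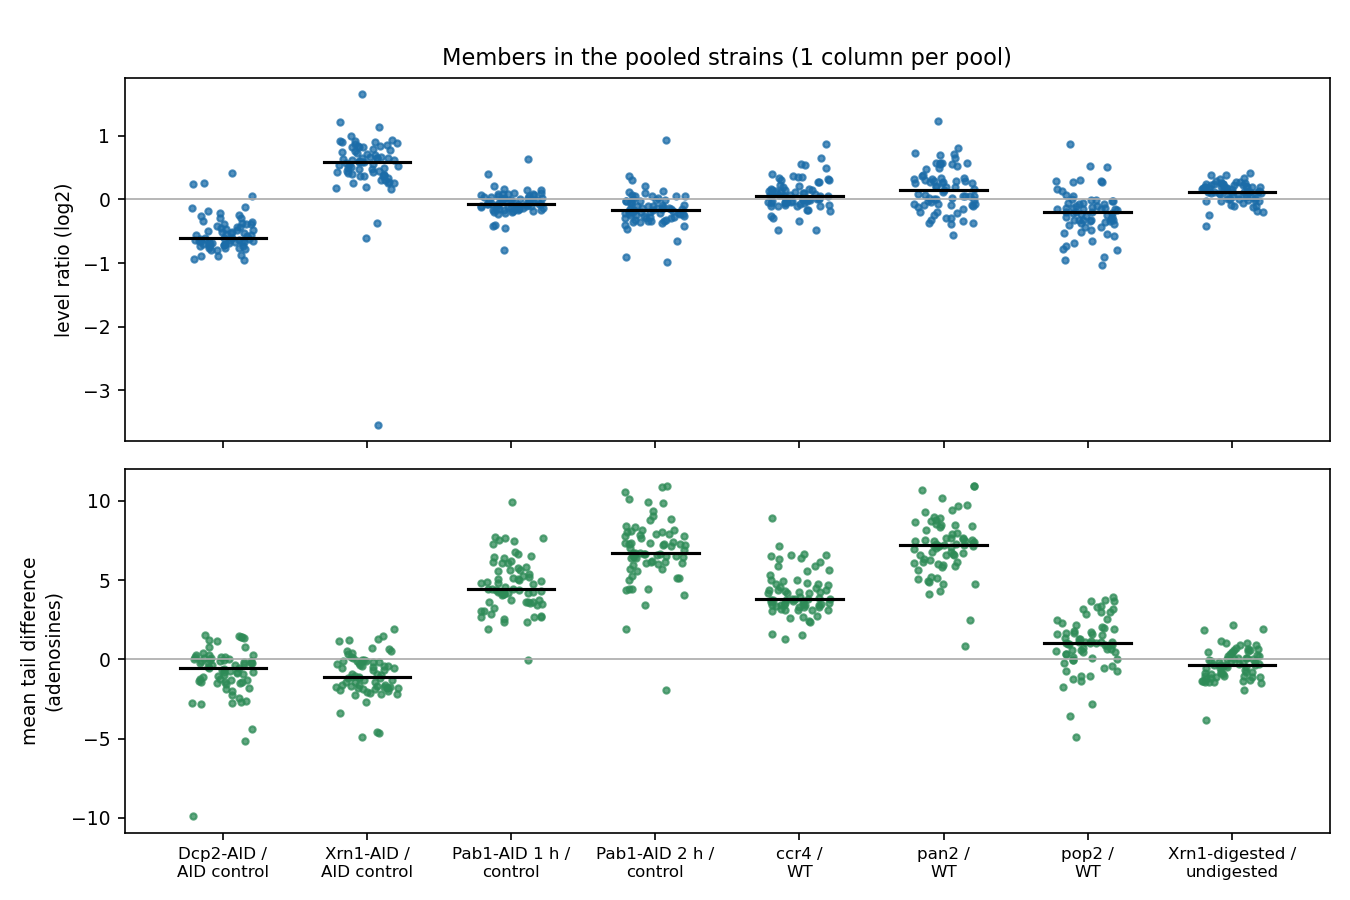
Log2 ratio of levels (top) and difference of mean tails in adenosines (bottom) of each RPL member, 1 point per member, in each pooled group against its control, with the median as a bar. Median tail differences are 6.73 after 2 h of Pab1 depletion, 3.80 in ccr4Δ, 7.20 in pan2Δ and 1.03 in pop2Δ, and the lowest level ratio is that of RPL13A in Xrn1-AID cells (0.09).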

How the data were processed

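Yeast poly(A) RNA was sequenced by Nanopore DRS (94 samples). The authors aligned reads with minimap2 2.17 to a custom transcriptome (sacCer3), filtered them with SAMtools 1.9 and estimated tails, keeping estimates that passed quality control. The authors deposited raw read counts per transcript, with no normalization, and summaries of the tail lengths (mean, median, quantiles) in adenosines. In 13 tables, 336 columns were used; 984 were not used. These held 45 libraries with a column of their own and 10 pooled columns, of 26396 to 5504907 reads. The pan2 ccr4 strain, export-blocked cells under heat and thiolutin replicate B, whose times share 1 pooled column, were not analysed here.

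ENO2 was dropped. Level slopes with replicate as a block were fitted to counts with edgeR 4.0.16 (filterByExpr, library totals) and tail slopes with limma 3.58.1 (at least 10 reads, 1 heat library under 50000 reads left out), in R 4.3.3, over all transcripts. DESeq2 1.42.0, TMM, other filters, tail summaries, windows and left-out replicates were alternatives. Missing counts were 0, and half-lives used 0.01 reads. The fits were tested on simulated data: of level slopes of 0.5 and 1, 82.5% and 100.0% were recovered in the Mex67-AA chase (4012 transcripts), 38.9% and 94.9% under heat (3538) and 11.8% and 72.7% for their difference (3753), and of tail slopes of 3, 62.0% in the Mex67-AA chase (1071) and 56.0% under heat (872). The 5 lowest and highest level slopes, 3 lowest and highest tail slopes, 3 extreme controls, 5 paralog pairs most apart, and RPL4A, RPL36A and RPL18B were named; other names were chosen after their values were seen. Values of 1 member and its pair are not reported here. The members and lists were chosen with earlier results of these data known.

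In the Mex67-AA chase, same-lettered libraries were more alike than others, with a median correlation of their deviations of 0.042, against -0.139 between letters. Under heat they were not (-0.132, against -0.081 between letters).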

Additional observations from a re-analysis of the deposited data

Results flagged for a closer look

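Slopes differed between chases in the fit that tests the difference itself (edgeR quasi-likelihood test or limma with Benjamini-Hochberg adjustment). Under heat, 66 of 71 members had a lower level slope than in the Mex67-AA chase (11.2% of 4222 transcripts) and 1 a higher slope (70.8%), RPL15B, by 1.16, a call lost with TMM (0.07) and DESeq2 (0.48). The tail slope was higher under heat for 8 of 67 members, a smaller share than the 65.1% of 762 transcripts. Strain, temperature and treatment differ together between these chases and cannot be told apart.

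Reads outside the entries analysed were also counted. The coding region of RPL7A had an entry without that gene name, with 76106 reads over 54 columns, against 13 on the entry that carries the name. In the WT pool, 11.9% of the reads of members lay on second entries of the same locus tags, against 0.32% in ccr4Δ and 0 in pan2Δ, so that ratios to this pool carry that difference.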

How the results depend on the processing

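Scaling mattered most in the Mex67-AA chase, where 18 members fell and 26 rose: 6 fell and 59 rose with TMM, 6 fell and 60 rose with DESeq2, and 10 fell when times ended at 16 min. Both scalings turned RPL18B (0.10 and 0.12) and RPL36A (0.32 and 0.32) positive. In heat minus Mex67-AA slopes, the member with the higher slope was lost with TMM (0 members) and DESeq2 (0 members), none being higher at an unadjusted p under 0.05, and RPL4B turned to -0.95 and -0.60. Leaving out 1 replicate gave -0.13 to 0.34 for RPL4B (-0.13 without Mex67-AA replicate C) and -0.33 to 0.12 for RPL3 (0.12 without Mex67-AA replicate B).

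Without the replicate block, 12 members rose in the Mex67-AA chase, against 26 with it, and the calls of RPL36A and RPL41B there, and of RPL10 in the difference of level slopes, were lost. Other counts of calls stayed within 1.5 times. The letters name cultures within 1 chase and pair no samples across groups.

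The 22 heat tails that shortened became 55 with median tails, 0 with the 95th percentile (1 shortened and 3 lengthened at an unadjusted p under 0.05, limma), 36 at 50 reads, 34 with read weights, and 0 to 35 without 1 replicate. The 8 members with a higher tail slope under heat than in the Mex67-AA chase became 3, 17, 3 and 5 under these settings, and 3 to 13 without 1 replicate. Differences of RPL1A, RPL2B and RPL9A turned to 4.01, 6.46 and 0.45 with the 95th percentile. The cause was not tested.

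Paralog changes over 1 numbered 4 (Mex67-AA, against 10) and 5 (heat, against 8) with the mean from 8 min, and 5 to 12 and 5 to 9 without 1 replicate. Median half-lives with rising pairs kept were 85.6 min over the 35 members that then had a decay in the Mex67-AA chase, against 57.4 min over 70, and 14.0 min with thiolutin, against 12.2 min.

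In pooled columns, a 2-fold limit left 0 members lower in Dcp2-AID, 4 higher in Xrn1-AID, 0 higher after 1 h and 0 lower after 2 h of Pab1 depletion, 0 higher in ccr4Δ, 1 higher in pan2Δ and 1 lower in pop2Δ. A limit of 5 adenosines left 0 shorter in Xrn1-AID, 27 longer after 1 h of Pab1 depletion, 15 in ccr4Δ, 0 in pop2Δ, and 0 shorter after digestion. With median tails, 5 were shorter in Dcp2-AID, 7 in Xrn1-AID, 19 longer after 1 h of Pab1 depletion and 0 shorter after digestion. Adding entries of 1 locus tag gave 0 higher in ccr4Δ, 2 in pan2Δ and 21 lower in pop2Δ. Against undigested RNA, 47 were longer in pop2Δ, and the other table of digested RNA gave 2 shorter.

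Added entries, the undigested control, the other table, half-lives with the control at 2.7 min, and the fits without heat libraries under 100000 reads or without the Mex67-AA library of replicate C at 8 min were chosen after seeing the data. Slopes were not fitted with thiolutin, since 1 of its 2 cultures had columns by time. Values under an alternative were tallied apart for the headline results and for all others. Of the headline values, 108 stayed the same (counts within 1.5 times the main count, half-lives within 1 SD) and 52 moved. Of the others, 736 stayed the same. For a tested gene this means its direction and side of the threshold, for a count within 1.5 times, and for other values within 1 SD. A further 32 lost the call, 11 gained one, 11 reversed and 26 moved. Depth limits RPL15B, RPL22B and the RPL8A entry most.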

Other observations

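Entries outside the naming rule behaved as follows, as values with no test. RPL7A, read on the entry of its coding region (chrVII:364335-365996, - strand), had 2440 and 2094 CPM at 30 min of the Mex67-AA chase in replicates A and C, against 1621 and 1192 CPM at 0 min, and its tail in A was 21.8 adenosines, against 28.3. Under heat it had 942, 849 and 1196 CPM in the last libraries of A, B and D up to 16 min, against 2681, 2572 and 2278 CPM. The entry that joins RPL7B to the small nucleolar RNA gene SNR59 in its intron had 164 CPM at 30 min of the Mex67-AA chase in A, against 509 CPM, and 42 CPM at 14 min of heat in A, against 488 CPM. The levels of both copies thus differed in direction in replicate A of the Mex67-AA chase.

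RPL29, listed together with YFR032C-B, had 773, 482 and 895 CPM in these last heat libraries, against 1426, 1744 and 2406 CPM, and 2408, 2145 and 4679 CPM in the last Mex67-AA libraries of A, B and C, against 1966, 1565 and 3740 CPM. RPL21A, listed together with YBR190W and YBR191W-A, had 675, 503 and 1027 CPM in the last heat libraries, against 2163, 2310 and 2592 CPM. In both, every last heat library lay below all controls.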
